A study of Mus musculus with 6 samples.

Results

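The 10 genes described here encode the kinases ATR and ATM and proteins that act with them at DNA breaks and on the chromosome axes of spermatocytes: Atr, Atm, Atrip, Topbp1, Chek1, Chek2, Brca1, Mdc1, Hus1b and Rad9b. They were taken by symbol from the 55536 Ensembl genes counted in testis RNA of KOStra8 and HETStra8 mice. All 10 were matched and passed edgeR's filter on low counts, which kept 21465 genes. The genes were chosen by their place in the pathway of Atr, and Atr itself was selected on its fold change and p between KOStra8 and HETStra8 testes in these libraries. The question was whether that difference extended to its partners. The values of KOStra8 against HETStra8 testes for the 10 genes are therefore given as a description, with standard errors and intervals and without a test.

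Testes of 3 KOStra8 and 3 HETStra8 mice were sequenced at 7 weeks of age, with 1 library of poly(A)+ RNA per mouse. The KOStra8 mice had the genotype Sel1Lflox/∆;Stra8-Cre, in which the Stra8 promoter drives Cre in male germ cells, so that somatic cells of the testis, such as Sertoli and Leydig cells, lie outside the reach of the Cre. Not all germ cells lost SEL1L: the paper still found the protein in spermatogonia of KOStra8 mice, where it describes this Cre as only partly active. The labels give Sel1Lflox/∆ for the HETStra8 littermates, so a floxed and a deleted Sel1L allele were shared by both groups and Stra8-Cre was the difference. In the paper HETStra8 also covers Sel1Lflox/+;Stra8-Cre mice, and no genotype is given for single mice, so the presence of Cre and the loss of SEL1L cannot be told apart here. SEL1L, encoded by Sel1l, is the adaptor of an endoplasmic reticulum ubiquitin ligase that removes misfolded proteins.

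ATR and ATM are related kinases of the phosphatidylinositol 3-kinase-like family. ATM is activated at DNA double-strand breaks, and ATR at single-stranded DNA coated with replication protein A, to which its partner ATRIP brings it. In spermatocytes, breaks are made on purpose at the start of meiosis, and from pachytene onwards ATR is known to act on the unsynapsed axes of the X and Y chromosomes, where BRCA1, TOPBP1 and MDC1 help to lay down phosphorylated histone H2AX and to silence the sex chromosomes. CHEK1 and CHEK2 are the kinases that pass the signal on to the cell cycle machinery. RAD9B and HUS1B are paralogs of subunits of the ring-shaped RAD9-RAD1-HUS1 clamp, which is loaded at damaged DNA and lets TOPBP1 activate ATR.

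Library totals lay between 28875108 and 36526695 counts, and levels are given as CPM, counts scaled to a common library size with TMM factors. Sel1l fell from 46.4 ± 3.59 to 22.2 ± 1.97 CPM (SD, n = 3), or by 1.07 on the log2 scale with an SE of 0.104 (edgeR adjusted p = 0.00061, quasi-likelihood F test over all genes), and Stra8, whose promoter drives the Cre, was at 11.0 ± 1.94 and 10.5 ± 0.371 CPM. Fold changes followed the GC content of transcripts, with a Spearman rho of −0.46 over 21457 genes, which are not independent replicates. In HETStra8 mouse 3 this pattern differed from that of the other HETStra8 libraries: the deviation of a gene from its mean over the 6 libraries had a rho with GC content of −0.05 there, against 0.39 and 0.29 in HETStra8 mice 1 and 2 and values between −0.37 and −0.19 in KOStra8 mice. Results are therefore also given as GC-corrected values, in which a curve of each library's counts over the GC content and length of transcripts was taken out, and without HETStra8 mouse 3. In this pattern HETStra8 mouse 3 was the HETStra8 library closest to the KOStra8 mice. Leaving it out widens the GC difference between the groups, and calls made without it cannot be told apart from that difference. Markers of the germ cell stages and of the somatic cells were checked against the labelled tissue. All 9 markers of pachytene and diplotene spermatocytes passed the filter, and no gene of the marker lists was at 0 in all 6 libraries. The lists also held 4 epididymis genes, none of which passed the filter, so the lack of genes at 0 does not speak for the labelled tissue. HETStra8 mouse 1 stood apart in Crisp1, with 220 reads where every other testis had at most 11. The same mouse had 44 reads on Adam7, another epididymis gene, and the other testes had 0. The part of this in other values of that mouse was not tested. Since whole testes were sequenced, the share of each transcript that came from spermatocytes is not known, and a change in the number of cells of a type cannot be told apart from a change in RNA per cell.

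Of the 10 genes, 5 lie on chromosome 9, namely Atr, Atm, Atrip, Topbp1 and Chek1, with Chek2 and Rad9b on chromosome 5 and Brca1, Mdc1 and Hus1b on chromosomes 11, 17 and 13. Atr spans 95857597 to 95951781 on the plus strand of chromosome 9 in GRCm38, and Atm 53439149 to 53536740 on the minus strand. The promoters of Atr, Atm and Hus1b are shown because they differ in the features counted here and because the Atr window is also transcribed from the other strand. Each sequence runs 5′ to 3′ over 300 bases that end 50 bases into the gene, by RefSeq's annotation of GRCm38.p6, and capitals mark CCAAT and GGGCGG on either strand.
Atr, chr9:95857347-95857646, plus strand: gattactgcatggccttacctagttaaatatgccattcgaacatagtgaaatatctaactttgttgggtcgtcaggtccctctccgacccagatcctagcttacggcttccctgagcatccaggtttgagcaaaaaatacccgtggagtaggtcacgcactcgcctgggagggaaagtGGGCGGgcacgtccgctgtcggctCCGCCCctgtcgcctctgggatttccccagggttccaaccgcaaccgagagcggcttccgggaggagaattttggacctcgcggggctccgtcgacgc
Atm, chr9:53536622-53536921, minus strand: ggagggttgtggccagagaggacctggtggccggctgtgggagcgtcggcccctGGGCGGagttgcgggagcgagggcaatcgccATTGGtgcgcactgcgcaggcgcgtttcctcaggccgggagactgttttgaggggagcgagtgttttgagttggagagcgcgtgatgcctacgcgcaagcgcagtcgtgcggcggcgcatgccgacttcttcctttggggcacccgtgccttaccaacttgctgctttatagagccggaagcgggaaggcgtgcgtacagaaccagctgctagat
Hus1b, chr13:30947712-30948011, minus strand: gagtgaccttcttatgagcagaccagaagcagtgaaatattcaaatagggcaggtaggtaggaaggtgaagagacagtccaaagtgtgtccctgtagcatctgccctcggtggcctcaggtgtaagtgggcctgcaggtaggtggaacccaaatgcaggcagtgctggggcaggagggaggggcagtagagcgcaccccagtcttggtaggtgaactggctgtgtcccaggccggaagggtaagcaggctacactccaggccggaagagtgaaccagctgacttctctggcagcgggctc
The Atr window holds 2 copies of GGGCGG and no CCAAT, the Atm window 1 of each, and the Hus1b window neither. Promoters were found for all 10 genes. Over 32851 windows of 300 bases the median GC content was 52.7% and the median number of CG pairs 7, while the 10 genes ranged from 53.7% to 73.7% GC and 9 of them held between 19 and 38 CG pairs. Hus1b, a gene of a single exon, was the exception with 5. CCAAT stood in 6 of the 10 windows and in 37.4% of all windows, and GGGCGG likewise in 6 of the 10 and in 35.7% of all. Among the other motifs searched on both strands, none of which contains another, TTTGGCGC and TGACGTCA (0.5% and 1.8% of all windows) were in none of the 10, TTTCGCGC (0.3%) was in that of Topbp1, TATAAA (13.6%) in that of Atm and TTTGAA (17.9%) in that of Hus1b. These matches describe the letters of the windows and no binding.

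The levels of the 10 genes, per kilobase of longest transcript in HETStra8 testes, spread over more than an order of magnitude. Mdc1, the reader of phosphorylated H2AX, had the highest level, with a mean of 53.0 CPM per kb and a range of 52.4 to 53.3 over the mice. Atr followed at 38.2 CPM per kb (35.5 to 39.6). Topbp1 had 17 and Rad9b 10.5 CPM per kb, and the ranges of these first 4 genes did not overlap. Brca1 (3.69 CPM per kb), Atrip (3.33) and Chek1 (2.28) came next. Neighbours in that order, Brca1 and Atrip as well as Atrip and Chek1, overlapped in their ranges. Hus1b (1.46 CPM per kb) and Atm (1.41) overlapped too, and Chek2 was lowest at 0.941 (0.686 to 1.12). The level of Atr was thus far above that of its obligate partner Atrip and of the related kinase Atm, on a scale that depends on which transcript is made: over the union of all exons of its 13 transcripts, 23629 bases against 8102 in the longest one, the level of Atr was 13.1 CPM per kb. Atrip shares 1147 exonic bases with Trex1 on the same strand, where reads may not have been counted, so its level per kb may be too low. Among all genes tested, these per-length levels ran from the percentile of 27 for Chek2 to the percentile of 92.3 for Mdc1. In KOStra8 testes the mean of Atr was 53.3 CPM per kb (50.6 to 54.8) and that of Mdc1 51.1 (48.7 to 52.8), so that the ranges of these genes overlapped.

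**Figure D1:**
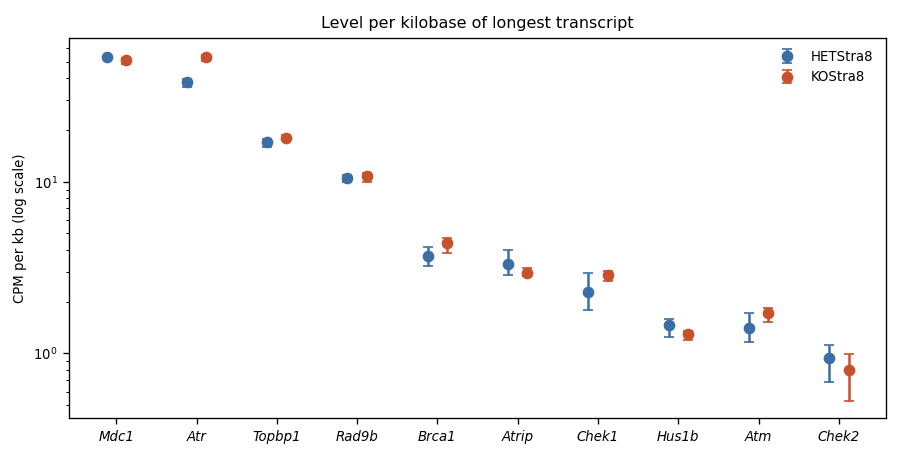
Level of each of the 10 genes in CPM per kilobase of longest transcript, on a log scale, in order of the HETStra8 mean. Points are means of 3 mice and bars run from the lowest to the highest mouse, with Mdc1 and Atr at the top and Chek2 lowest.

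Atr, the apical kinase of the response to single-stranded DNA, was higher in the testes of KOStra8 mice compared to HETStra8 littermates. HETStra8 mice 1 to 3 had 10093, 9666 and 10642 counts, and KOStra8 mice 1 to 3 had 15387, 11866 and 16207. In CPM these made 321, 287 and 319 against 441, 410 and 444. Every KOStra8 testis lay above every HETStra8 testis, and the spread within each group was small beside the gap. The means were 309 ± 19.1 and 431 ± 18.7 CPM (SD, n = 3), a fold of 1.40 that is 0.48 on the log2 scale (SE 0.0712, 95% interval 0.33 to 0.63). This is below the study's cutoff of a fold of 2. The longest Atr transcript has a GC content of 40.8%, the lowest of the 10 genes, and the GC-corrected log2 fold change was 0.22 (SE 0.0687). The corrected levels were 378, 315 and 322 CPM in HETStra8 mice and 390, 401 and 395 CPM in KOStra8 mice, still without overlap, but with HETStra8 mouse 1 close below the KOStra8 mice. Without HETStra8 mouse 3 the log2 fold change was 0.51 as counted and 0.19 when also corrected for GC.

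**Figure D2:**
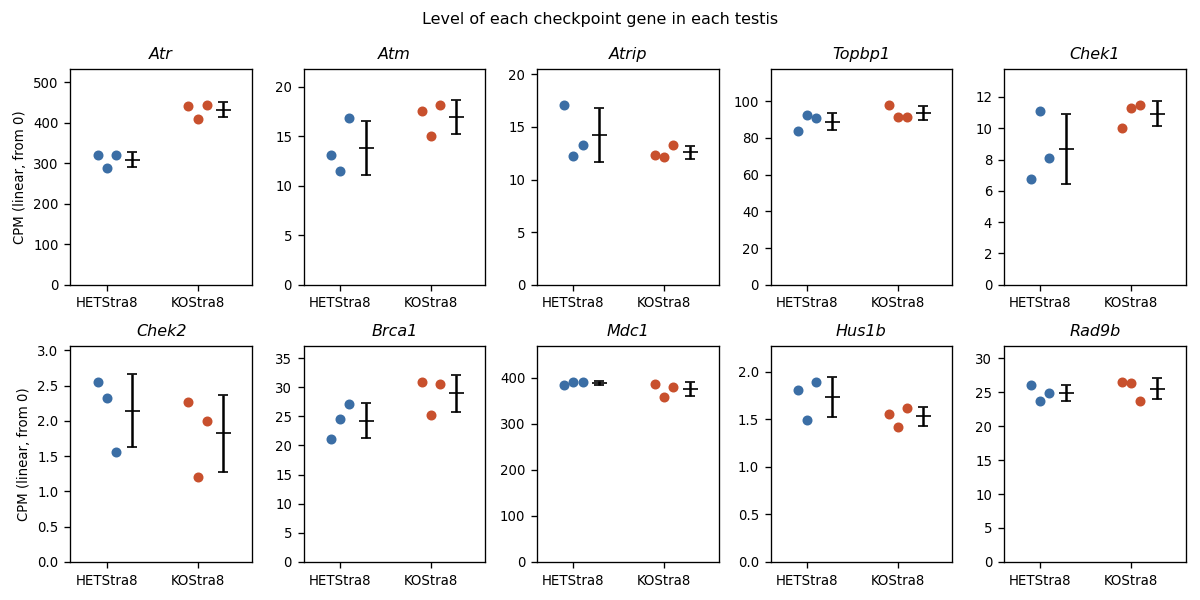
CPM of each of the 10 genes in each testis, 1 dot per mouse, on linear axes from 0 that differ between genes. The black marks are the mean and SD of 3 mice. Only for Atr do all 3 KOStra8 dots lie above all 3 HETStra8 dots.

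The gene that overlaps the start of Atr was higher in each KOStra8 testis than in any HETStra8 testis, without passing the test. The same held for 9.33% of all genes tested. 1700065D16Rik, a non-coding gene on the opposite strand from 95855418 to 95858322, covers the whole promoter window printed above and shares 726 exonic bases with Atr. Its counts were 274, 264 and 235 in HETStra8 mice and 325, 279 and 416 in KOStra8 mice. The levels were 10.1 ± 1.12 CPM in KOStra8 against 7.87 ± 0.833 CPM in HETStra8 testes (SD, n = 3). On the log2 scale the difference was 0.36 (SE 0.154, edgeR adjusted p = 0.369), and 0.47 when corrected for GC. Gm16794, on the opposite strand at the far end of Atr, shares 462 exonic bases with it and had 8, 12 and 26 counts in HETStra8 mice and 38, 37 and 23 in KOStra8 mice, so the groups overlapped. Reads appear to have been counted by strand: of 210 genes wholly covered by a gene on the opposite strand, 112 had counts. Of 396 genes wholly covered on the same strand, none had. This does not measure how many reads fell on the wrong strand. Atr had 9666 to 16207 counts, far more than either overlapping gene, and the part of its reads in their counts was not tested. The coding genes on either side of Atr had smaller values. Their log2 fold changes were 0.11 for Trpc1 (SE 0.142), −0.09 for Pls1 (SE 0.210), 0.26 for Xrn1 (SE 0.126) and 0.13 for Gk5 (SE 0.175), and Xrn1, a ribonuclease whose transcript is also poor in GC, came to 0.02 when corrected.

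None of the 9 partners separated the groups as Atr did. The groups did not overlap, with KOStra8 higher, for 1 of the 10 genes, beside 9.33% of all genes tested, and with KOStra8 lower for 0, beside 8.43%. Nothing is read from these shares, since the set was built around Atr. The log2 fold change was above 0 for 6 of the 10 genes, against 48.5% of all genes, and its median was 0.06 over the 10 genes and 0.04 over the 9 partners, beside −0.0094 over all genes tested.

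Atrip and Topbp1, which bring ATR to its sites and activate it, had values near or below 0. Atrip was at 17.1, 12.2 and 13.3 CPM in HETStra8 mice and at 12.3, 12.1 and 13.3 CPM in KOStra8 mice. One HETStra8 mouse was high and the other 5 testes were alike, with a log2 fold change of −0.17 (SE 0.144, 95% interval −0.48 to 0.14). It was −0.03 with the GC correction, and without HETStra8 mouse 1 it was −0.02 as counted and 0.08 when corrected. Atrip contains the whole of Trex1, a nuclease gene on the same strand with which it shares 1147 exonic bases and which had 0 counts in all 6 libraries, as was the case for each of the 396 genes wholly covered on the same strand. Topbp1 was at 83.6, 92.3 and 90.7 CPM in HETStra8 mice and at 98.0, 91.4 and 91.2 CPM in KOStra8 mice. The groups overlapped, and its log2 fold change of 0.07 (SE 0.0787) had an interval from −0.09 to 0.24. Leaving out each mouse in turn gave 0.03 to 0.10.

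Atm and Chek1 had positive values that were less certain. Atm, the sister kinase that responds to double-strand breaks, was at 13.1, 11.5 and 16.9 CPM in HETStra8 mice and at 17.6, 15 and 18.2 CPM in KOStra8 mice. HETStra8 mouse 3 reached the level of the KOStra8 mice, and the log2 fold change was 0.29 (SE 0.149, 95% interval −0.03 to 0.61). With the GC correction it was 0.08. The value turned on the HETStra8 mice left in: it was 0.47 without mouse 3, and 0.18 without mouse 2, which became −0.04 when corrected as well. Chek1, the effector kinase downstream of ATR, was at 6.74, 11.1 and 8.13 CPM in HETStra8 mice and at 10, 11.3 and 11.5 CPM in KOStra8 mice. The HETStra8 mice were spread widely and the KOStra8 mice closely, with a log2 fold change of 0.34 (SE 0.178, 95% interval −0.04 to 0.72) and of 0.15 with the GC correction. It was 0.19 without HETStra8 mouse 1 and 0.56 without HETStra8 mouse 2. Chek2, the effector of ATM, had few reads, between 35 and 80 counts per library. It was at 2.55, 2.32 and 1.56 CPM in HETStra8 mice and at 2.26, 1.21 and 2.00 CPM in KOStra8 mice, and the interval around its log2 fold change of −0.22 (SE 0.311) was the widest of the set, from −0.89 to 0.44. Leaving out each mouse in turn moved it between −0.40 and 0.00.

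Brca1 and Mdc1 act where ATR works on unsynapsed axes and on the sex body, the domain of the silenced X and Y chromosomes. Brca1 was at 21.1, 24.5 and 27.2 CPM in HETStra8 mice and at 30.9, 25.3 and 30.6 CPM in KOStra8 mice. KOStra8 mouse 2 lay within the range of the HETStra8 mice and the other 2 above it, with a log2 fold change of 0.25 (SE 0.121, 95% interval 0.00 to 0.51) and of 0.19 with the GC correction. It was 0.16 without HETStra8 mouse 1 and 0.36 without HETStra8 mouse 3. Mdc1 had the smallest SE of the set, with 10350 to 13864 counts per library. It was at 384, 390 and 391 CPM in HETStra8 mice and at 387, 358 and 380 CPM in KOStra8 mice. Its log2 fold change was −0.05 (SE 0.0651), with an interval of −0.19 to 0.09.

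Rad9b and Hus1b are paralogs of the clamp subunit genes Rad9a and Hus1. Rad9b was at 26.0, 23.7 and 24.9 CPM in HETStra8 mice and at 26.5, 26.4 and 23.7 CPM in KOStra8 mice, and its log2 fold change of 0.04 (SE 0.102) had an interval from −0.18 to 0.26. It shares 1002 exonic bases with Pptc7 on the opposite strand. Hus1b, which lies in an intron of Exoc2 without sharing exonic bases, was at 1.81, 1.49 and 1.89 CPM in HETStra8 mice and at 1.55, 1.42 and 1.62 CPM in KOStra8 mice, from 41 to 63 counts. The groups overlapped in both genes, and the interval for Hus1b of −0.79 to 0.44 around −0.18 (SE 0.286) was nearly as wide as that of Chek2. The partner subunits did not separate the groups either. Rad9a was at 5.04 ± 1.34 and 5.70 ± 0.353 CPM, Hus1 at 8.81 ± 0.515 and 9.01 ± 0.417 CPM, and Rad1, the subunit common to all forms of the clamp, at 8.15 ± 2.53 and 7.63 ± 0.579 CPM (SD, n = 3), with log2 fold changes of 0.18, 0.03 and −0.09 (edgeR adjusted p = 0.761, 0.945 and 0.884). With the GC correction these were 0.32, −0.05 and −0.22, so that the sign of Hus1 turned.

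Side by side, the 95% interval of the log2 fold change was 0.33 to 0.63 for Atr as counted, those of Atrip, Topbp1, Mdc1 and Rad9b ended below 0.33, and those of Atm, Chek1, Chek2, Brca1 and Hus1b overlapped it. With the GC correction Atr was at 0.22 (SE 0.0687) and the 9 partners between −0.26 and 0.19. The median was then 0.01 over the 10 genes and −0.02 over the 9 partners. Brca1 came to 0.19 (SE 0.104), Atrip to −0.03 (SE 0.133) and Topbp1 to 0.03 (SE 0.0668). Mdc1 came to −0.02 (SE 0.0542) and Rad9b to −0.03 (SE 0.0973). No intervals were made for corrected values, so the intervals as counted do not show whether Atr stays apart from a partner after correction. The difference between Atr and a partner was not tested, and Atr was selected on this value. GC contents of the partners ran from 41.0% (Chek1) to 54.9% (Atrip). Of the partners with close GC contents, Brca1 (46.2%) had 0.25 as counted (SE 0.121) and Topbp1 (46.4%) 0.07 (SE 0.0787). Chek2 (46.4%) had −0.22 (SE 0.311) and Hus1b (46.5%) −0.18 (SE 0.286), and the 95% intervals of these genes overlapped. The part of GC content in the values of the 10 genes was not tested beyond this correction.

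**Figure D3:**
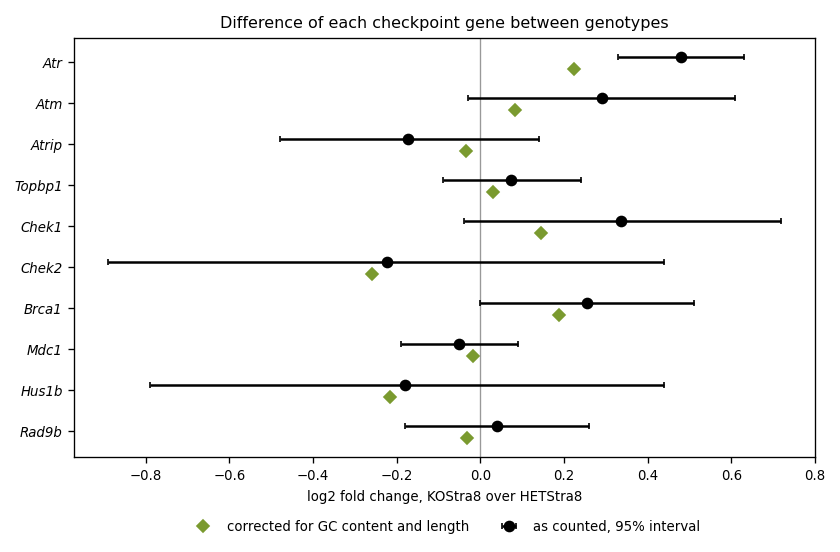
Log2 fold change of the 10 genes, KOStra8 over HETStra8, with 95% intervals as counted (black) and the GC-corrected value (green diamonds). Atr is the gene whose interval lies wholly above 0, from 0.33 to 0.63, and its corrected value is 0.22.

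**Figure D4:**
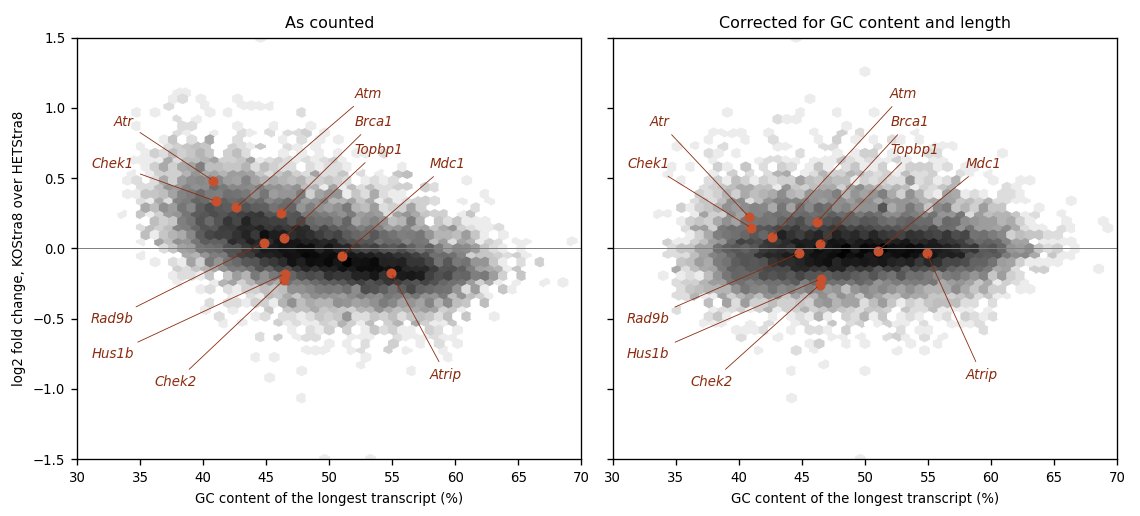
Log2 fold change against the GC content of the longest transcript, as counted (left) and after correction (right). The grey hexagons count genes with a mean of at least 1 CPM on a log scale, with values beyond ±1.5 drawn at the edge, and the 10 genes are the labelled dots. As counted, the cloud falls from left to right and Atr sits at 0.48 on its upper left. After correction the trend is flat and Atr sits at 0.22.

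The wider pathway was described with 57 genes in 6 lists by function, of which 56 were matched and all 56 passed the filter on low counts. At an adjusted p of 0.01 edgeR, DESeq2 and limma-voom each called 0 of these 56 genes, beside 0.0186%, 1.08% and 0.0186% of all genes with an adjusted p. At an unadjusted p below 0.05, edgeR called 7 of 56 as higher in KOStra8 testes and 0 as lower, beside the 7.13% and 5.12% of all genes. The median log2 fold change of the 56 genes was 0.02. With the GC correction, 4 of 56 were higher and 2 lower at that p, beside 4.07% and 3.51% of all genes. Without HETStra8 mouse 3, 3 of the 56 genes passed an adjusted p of 0.01, namely Prkdc, Rbbp8 and Hormad1, beside 2.01% of all genes tested. With the GC correction as well, edgeR called 0 of the 56 at that threshold, beside 0.643% of all genes. At an unadjusted p below 0.05 it then called 6 of the 56 as higher and 9 as lower, beside 6.64% and 5.77% of all genes.

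Prkdc, which encodes the catalytic subunit of DNA-dependent protein kinase, the third kinase of this family at DNA ends, had the smallest p of the 56 genes. It was at 18.1, 22.9 and 24.2 CPM in HETStra8 mice and at 29.4, 30.1 and 32.1 CPM in KOStra8 mice, without overlap. Its log2 fold change of 0.49 (SE 0.118, edgeR adjusted p = 0.141) was close to that of Atr, and 0.28 with the GC correction. Smg1, the family member that acts in nonsense-mediated decay, was at 276 ± 14.6 and 308 ± 26.2 CPM (SD, n = 3), with 0.16 on the log2 scale (edgeR adjusted p = 0.429) and −0.03 with the GC correction. The list of this family and of the proteins that mature it, with 7 genes, had a median of −0.05.

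Etaa1 encodes an activator of ATR that works beside TOPBP1 and binds replication protein A directly. It was at 4.39, 4.55 and 6.15 CPM in HETStra8 mice and at 7.33, 7.32 and 9.5 CPM in KOStra8 mice, again without overlap. At 0.68 (SE 0.190, edgeR adjusted p = 0.193) its log2 fold change was the highest of the 56 genes, and it was 0.45 with the GC correction. Rad17, which loads the clamp, was at 56.0 ± 6.94 and 65.0 ± 1.26 CPM (SD, n = 3), or 0.22 on the log2 scale (edgeR adjusted p = 0.387), which turned to −0.15 with the GC correction. The list of clamp, replication protein A and fork genes, 12 in all, had a median of −0.01.

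Among 8 genes of break sensing and chromatin, Rad50, of the complex that activates ATM, was at 23.7 ± 2.75 and 29.9 ± 3.74 CPM, and Rnf168, a ubiquitin ligase that marks chromatin at breaks, at 49.6 ± 7.08 and 58.7 ± 5.41 CPM (SD, n = 3). Their log2 fold changes were 0.34 and 0.24 (edgeR adjusted p = 0.294 and 0.390), and 0.26 and 0.16 with the GC correction. In the list of BRCA1 complexes, 10 genes with a median of 0.10, Rbbp8, which starts the resection of break ends, was at 36.8, 47.3 and 57.9 CPM in HETStra8 mice and at 61.9, 61.0 and 62.7 CPM in KOStra8 mice. The HETStra8 mice were scattered below a tight KOStra8 group, with a log2 fold change of 0.39 (SE 0.134, edgeR adjusted p = 0.293) and of 0.57 without HETStra8 mouse 3 (edgeR adjusted p = 0.00389). With the GC correction it was 0.23 (edgeR adjusted p = 0.655). Brca2, which loads the recombinase on resected DNA, was at 75.2 ± 18.1 and 95.5 ± 22.5 CPM (SD, n = 3), with overlapping groups and an edgeR adjusted p of 0.609, and its log2 fold change was 0.12 with the GC correction.

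Of 7 genes of the meiotic axis and of silencing, Hormad1, the axis protein that recruits ATR to unsynapsed chromosomes, was at 57.6, 73.1 and 102 CPM in HETStra8 mice and at 97.2, 97.4 and 120 CPM in KOStra8 mice. HETStra8 mouse 3 lay among the KOStra8 mice, and the log2 fold change of 0.44 (SE 0.215, edgeR adjusted p = 0.469) was 0.69 without that mouse (edgeR adjusted p = 0.00738) and 0.06 with the GC correction. Scml2, a germline Polycomb protein linked to the sex body, was at 21.6 ± 3.20 and 28 ± 3.01 CPM (SD, n = 3), with 0.37 on the log2 scale (edgeR adjusted p = 0.272) and 0.19 with the GC correction. The effectors and attenuators, 12 genes with a median of −0.06, had none of the 7. Their genes of smallest p had lower means in KOStra8 testes: Plk1, a kinase of mitotic entry, was at 113 ± 16.3 and 97.8 ± 5.15 CPM, and Trp53 at 17.3 ± 0.403 and 14.7 ± 1.16 CPM (SD, n = 3), with log2 fold changes of −0.21 and −0.23 (edgeR adjusted p = 0.410 and 0.435), and −0.07 and −0.11 with the GC correction. Trp53, Cdc25a and Ppm1d, of which the last 2 were singled out after their values were seen, were the 3 of the 56 genes with all KOStra8 mice below all HETStra8 mice, beside the 8.43% of all genes, and 6 of 56 had all KOStra8 mice above, beside 9.33%.

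**Figure D5:**
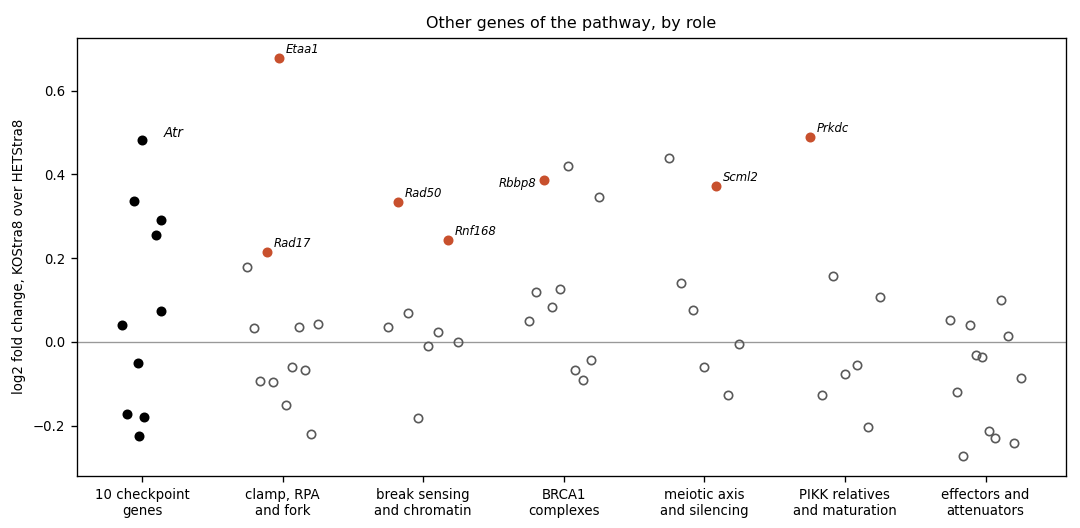
Log2 fold change of the 10 genes (black) and of the 56 other pathway genes by list. Filled orange dots are the 7 genes with an unadjusted p below 0.05, all of them above 0, and open circles are the others. Atr lies at 0.48, Prkdc at 0.49 and Etaa1 at 0.68.

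Among the genes whose level followed that of Atr most closely over the 6 libraries were Zfp229 (Pearson r of log2 CPM 0.997), Golt1b (0.994), Rwdd1 (0.993) and Usp34 (0.990), of 17592 other genes with a mean of at least 1 CPM. With 6 libraries in 2 groups, 77 genes had an r above 0.95, and these points share genotype, library and GC pattern. Usp34, a ubiquitin protease, was at 257 ± 19.5 and 353 ± 26.5 CPM (SD, n = 3), with a log2 fold change of 0.46 as counted and 0.19 with the GC correction, close to both values of Atr. Among the partners, Atm had the highest r, 0.774, at rank 1345 of these genes. Brca1 had 0.699, Topbp1 0.476, Chek1 0.465 and Rad9b 0.319, while Chek2, Atrip, Hus1b and Mdc1 had values between −0.478 and −0.256.

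Markers of the cells in which these genes act were measured in the same libraries. Of the 8 genes listed for leptotene and zygotene spermatocytes, Tex101 and Sycp1 had the highest HETStra8 means, 131 and 125 CPM. Whether the sum of the 8 stands for cells of these stages alone was not tested. It lay between 318 and 435 CPM in HETStra8 mice and between 472 and 507 CPM in KOStra8 mice. The median log2 fold change of the 8 was 0.04. Most of the difference in the sum lay in Sycp1, a protein of the synaptonemal complex, which was at 70.9, 120 and 186 CPM in HETStra8 mice and at 261, 247 and 228 CPM in KOStra8 mice (log2 fold change 0.97, SE 0.386, edgeR adjusted p = 0.424, GC-corrected 0.59). Rad51ap2 had 0.55 (edgeR adjusted p = 0.30, GC-corrected 0.25), and Stra8, Meiob, Dmc1, Spo11, Prdm9 and Tex101 lay between −0.15 and 0.15. The 9 markers of pachytene and diplotene spermatocytes summed to between 5560 and 6020 CPM in HETStra8 mice and to between 5330 and 5700 CPM in KOStra8 mice, with a median log2 fold change of −0.02. Of these, Mybl1, a transcription factor of pachytene cells with a GC content of 37.0%, had 0.45 (edgeR adjusted p = 0.112), which was 0.10 with the GC correction. Piwil1, Ccna1, Hspa2, Pou5f2, Ldhc, Pgk2, Aurkc and Tbpl1 lay between −0.18 and 0.03. Among somatic cells, the 7 Sertoli markers summed to between 299 and 326 CPM in HETStra8 mice and to between 262 and 275 CPM in KOStra8 mice. Their median log2 fold change was −0.099, and −0.078 with the GC correction. Amhr2 made the largest part, at 170 ± 9.34 and 139 ± 4.65 CPM (SD, n = 3). Amhr2, Rhox5 and Cldn11 had −0.29, −0.34 and −0.14, and Sox9, Wt1 and Fshr lay between −0.06 and −0.01. Trf did not pass the filter. The 5 Leydig markers summed to between 478 and 719 CPM in HETStra8 mice and to between 400 and 516 CPM in KOStra8 mice. Their median was −0.30, and −0.24 with the GC correction. HETStra8 mouse 1 was high in Insl3, at 83.7 CPM against 38.9 and 40.2 CPM in HETStra8 mice 2 and 3. The lists of endothelial cells, peritubular myoid cells and macrophages had medians of −0.24, −0.13 and −0.11. With the GC correction these were −0.16, −0.052 and −0.047. None of these markers was at 0 in all libraries. The part of these shifts in the level of Atr and its partners was not tested.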

How the data were processed

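The authors deposited raw counts, 1 table for each mouse, with the whole number of reads on each of 55536 Ensembl genes. The submitters' processing notes name STAR 2.7.1a, featureCounts 1.6.0, HTSeq and the builds mm10 and GRCm38 without their roles, and the strand setting is not given in the sources used here. Symbols, positions, GC content and lengths came from GENCODE mouse release 21, and promoters from RefSeq.

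The comparison used edgeR 4.0.16 in R 4.3.3, with filterByExpr, TMM factors, robust quasi-likelihood dispersions, genotype alone in the design, a two-sided F test and Benjamini-Hochberg adjustment over 21465 genes, called at an adjusted p of 0.01. Intervals are 95% intervals of the fit. For the GC correction, loess curves (span 0.3) over GC content and length were fitted to each library and used as offsets, and 8 genes with no GC value kept their own. Alternatives were DESeq2's size factors, library totals, no filter, at least 10 counts in every library, a block for the mouse number, DESeq2 1.42.0, limma-voom 3.58.1, an adjusted p of 0.05, an added fold of 2, and leaving out each mouse. Variation between mice corresponded to a common biological coefficient of variation of 0.160, and genes with few counts carry a counting error besides. No libraries were duplicates.

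The 10 genes, the lists and the tests were chosen with earlier results of these data known. Named from each pathway list are the 2 genes with the smallest p and any past an adjusted p of 0.01, together with Sel1l, Stra8, Rad9a, Hus1 and Rad1, the 5 genes most correlated with Atr, and the markers of both spermatocyte lists. Other genes were named after their values were seen. The result for 1 gene that falls under this rule is not reported here. The symbol Brme1 matched no gene.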

Additional observations from a re-analysis of the deposited data

How the results depend on the processing

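The log2 fold change of Atr, 0.48 as counted, kept its sign under all alternatives run. It was 0.224 with the correction for GC content and length and 0.228 with that correction and the replicate block. Leaving out each mouse gave 0.43 to 0.522. With the correction as well it was 0.312, 0.175 and 0.188 without HETStra8 mice 1 to 3 and 0.235, 0.214 and 0.226 without KOStra8 mice 1 to 3. The number of all genes past an adjusted p of 0.01 was 4 in the main edgeR comparison. It was 385 without a filter, 132 in DESeq2 and 2 with a fold of 2 added. The paper lists more genes at its own cutoff of fold and adjusted p, and the reason for that difference was not tested. Without single mice the number found here was 1 to 443 (443 without HETStra8 mouse 3, 14 without HETStra8 mouse 1, 1 without KOStra8 mouse 2 or 3). With the correction as well it was 3 to 142 (142 without HETStra8 mouse 3, 11 without HETStra8 mouse 1). Whether the mouse numbers pair the samples is not known. Same-numbered mice had correlations of −0.0601, −0.0525 and 0.108 of their deviations from the group means. Mice of differing number had −0.116 to 0.155, so these values cannot decide it. The replicate block gave 32 calls. The median over the 10 genes, 0.06, was −0.032 without HETStra8 mouse 2 and with the correction. The number of the 10 genes with all KOStra8 above all HETStra8 mice was 1 to 3 without single mice, beside 12.8% to 18.7% of all genes tested, where it was 9.33% with all mice: Topbp1 and Chek1 joined Atr without HETStra8 mouse 2, Atm and Brca1 without HETStra8 mouse 3 or KOStra8 mouse 2, Chek1 without KOStra8 mouse 1 and Rad9b without KOStra8 mouse 3. With the correction as well it was 1 to 2, beside 10.5% to 15% of all genes. Of the 56 other pathway genes, 7 at an unadjusted p below 0.05 became 3 to 14 without single mice (14 without HETStra8 mouse 3, 3 without HETStra8 mouse 2, 4 without KOStra8 mouse 1) and 2 to 15 with the correction added, beside 6.56% to 19.8% and 4.75% to 12.4% of all genes. Prkdc and Rbbp8 passed the adjusted p of 0.01 without a filter, beside 1.07% of all genes in that setting. Depth limits Chek2 and Hus1b, with at most 80 counts per library, to wide intervals.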
